A study of Mus musculus with 8 samples.

Results

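Cells make cholesterol and fatty acids from acetyl-CoA by a pair of enzyme chains that share their transcriptional control, and 35 genes of these chains were followed here in mouse pancreatic islets. They were chosen by gene symbol: 18 encode enzymes of cholesterol synthesis (the sterol arm), 11 encode enzymes that make, elongate or desaturate fatty acids (the fatty acid arm), and 6 encode their sterol-sensing regulators and a sterol carrier. All 35 were found among the 55414 gene identifiers of the count tables, and all 35 were among the 20509 genes with enough counts to be tested.

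RNA was sequenced from islets, the endocrine clusters of the pancreas, of C57BL/6 mice at 5 weeks of age. In the 4 libraries labelled TG the genotype was Ins2 cre(+/-) ATF4 TG(+/-), an ATF4 transgene together with a Cre recombinase named after the insulin 2 gene, whose promoter is active in beta cells. In the 4 libraries labelled WT it was Ins2 cre(-/-) ATF4 TG(+/-), so the controls carried the same transgene in the heterozygous state and lacked only the Cre driver. No group with the Cre driver and without the transgene was analysed here, so effects of Cre and of ATF4 cannot be told apart. The title of the series concerns endoplasmic reticulum stress and ATF4, so the question put to these libraries is what changes once the Cre driver joins the transgene. Separate animals are not named in the labels, so p-values here reflect the spread between the 4 samples of each group, which may be technical.

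Gene counts per library ran between 16521087 and 22499999, and levels are given as CPM, counts relative to a library size that the TMM method had adjusted between libraries. Transcripts counted under Atf4 itself were lower in the TG-labelled libraries (261 ± 19.8 CPM, against 352 ± 21.1 CPM in WT-labelled libraries; SD, n = 4 each; log2 fold change −0.43, adjusted p = 0.00226). That goes against the label, and the sources used here do not say whether transgene transcripts are counted under Atf4. Of 5 known ATF4 targets, Trib3 (log2 fold change 5.39), Chac1 (3.98), Eif4ebp1 (3.16) and Asns (2.46) were higher in the TG-labelled libraries and Ddit3 measured 0.22 (adjusted p = 0.126). Directions below are given for libraries as labelled.

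The transcription factors SREBP1 and SREBP2, encoded by Srebf1 and Srebf2, are made as membrane proteins of the endoplasmic reticulum. SCAP carries them to the Golgi, where proteases release the active factor, and the INSIG proteins hold SCAP back when membrane sterols are plentiful. The released factor binds sterol regulatory elements, often beside a CCAAT box bound by NF-Y. SREBP2 is known mainly for sterol genes and SREBP1 for fatty acid genes, and Srebf2 and Insig1 are themselves SREBP targets. In beta cells these chains provide membrane lipids, and carbon from glucose enters fatty acids through citrate and malonyl-CoA.

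The promoters of 4 of these genes are shown because they hold the elements just named or belong to genes whose levels differed between the groups. Srebf2 encodes the sterol factor itself, Insig1 its sterol-dependent anchor, Lss the only sterol enzyme called between the groups, and Hmgcs1 an early sterol enzyme that was not called. Each sequence gives the 250 bases before the gene's start, from the RefSeq promoter table (GRCm38.p6), 5′ to 3′. Capitals mark matches, on either strand, to the SRE-like motif TCACNCCA or to the CCAAT box, which reads ATTGG on the other strand.
Srebf2, chr15:82147019-82147268, + strand: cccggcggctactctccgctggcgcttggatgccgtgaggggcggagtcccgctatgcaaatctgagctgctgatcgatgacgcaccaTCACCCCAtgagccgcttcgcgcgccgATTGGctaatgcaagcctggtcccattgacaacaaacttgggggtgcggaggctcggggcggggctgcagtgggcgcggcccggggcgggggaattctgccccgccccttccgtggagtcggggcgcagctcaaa
Insig1, chr5:28071162-28071411, + strand: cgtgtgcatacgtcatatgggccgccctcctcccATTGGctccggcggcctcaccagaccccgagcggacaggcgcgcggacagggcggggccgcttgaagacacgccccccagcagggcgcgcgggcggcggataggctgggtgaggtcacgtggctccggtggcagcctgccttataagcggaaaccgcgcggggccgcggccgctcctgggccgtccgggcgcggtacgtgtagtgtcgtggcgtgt
Lss, chr10:76531355-76531604, + strand: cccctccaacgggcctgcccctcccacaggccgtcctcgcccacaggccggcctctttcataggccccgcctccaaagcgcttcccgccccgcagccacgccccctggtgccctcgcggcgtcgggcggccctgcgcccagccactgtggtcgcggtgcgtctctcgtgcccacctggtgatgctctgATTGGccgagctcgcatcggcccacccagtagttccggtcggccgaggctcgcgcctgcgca
Hmgcs1, chr13:119690101-119690350, + strand: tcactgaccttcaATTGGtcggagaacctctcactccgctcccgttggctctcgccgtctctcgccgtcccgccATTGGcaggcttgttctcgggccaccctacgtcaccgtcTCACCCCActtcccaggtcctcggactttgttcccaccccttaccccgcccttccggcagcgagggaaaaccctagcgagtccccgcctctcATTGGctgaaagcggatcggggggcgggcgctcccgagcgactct
In Srebf2 the SRE-like match TCACCCCA began 162 bases before the start and the CCAAT box 135 bases before it. Hmgcs1 held the same 8 letters, beginning 137 bases before the start, and 3 CCAAT boxes in the stretch shown. Insig1 and Lss had a CCAAT box and no match to these SRE-like letters, which says nothing of whether SREBP binds there.

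A promoter window of 250 bases before to 50 bases after the start was found for 28 of the 35 genes. Sqle, Scd1, Scd2, Stard4, Fdft1, Fdps and Fads1 had no entry. A CCAAT box lay in 23 of the 28 (82.1%), against 41.1% of all 27025 genes in the table and 42% of its 13496 genes tested here. By arm the box lay in 14 of 15 sterol genes, 4 of 5 regulators and 5 of 8 fatty acid genes. The motif TCACNCCA was found in 3 (Hmgcs1, Msmo1 and Srebf2; 10.7%), against 4.97% of all genes. A form of the composite element bound by ATF4, TGATGNAA, was found in 2 (Idi1 and Insig2; 7.14%), against 4.51% of all genes. The core of the antioxidant response element, TGACNNNGC, was found in 5 (Mvk, Pmvk, Hsd17b7, Dhcr7 and Me1; 17.9%), against 14% of all genes. Among the 13496 tested genes the shares with TCACNCCA, TGATGNAA and TGACNNNGC were 4.73%, 3.19% and 16.4%. Both strands were searched, and none of the 58 matches overlapped a match to another motif.

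Across the 35 genes, most differences between the groups were small and pointed down in the TG-labelled islets. A call needs an adjusted p under 0.05 (edgeR quasi-likelihood test, two-sided, adjusted over all 20509 genes). By this rule 2 of the 35 were higher, 8 were lower and 25 were not called. Among all tested genes 20.1% were called, 12.1% higher and 8.06% lower. The median SE was 0.117 for the 35 and 0.207 for all tested genes, so a difference of the same size is called more readily among the 35. The log2 fold change was negative for 26 of the 35 and positive for 9, with a median of −0.20, while the median over all tested genes was −0.002 and 50.2% of them were negative. The TG-labelled and WT-labelled libraries did not overlap for 11 of the 35, with TG below for 9 and above for 2. Among all tested genes 22.6% did not overlap, with TG below for 9.94% and above for 12.6%. The calls fell unevenly over the arms, with 4 of 6 regulators, 5 of 11 fatty acid genes and 1 of 18 sterol enzymes.

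**Figure D1:**
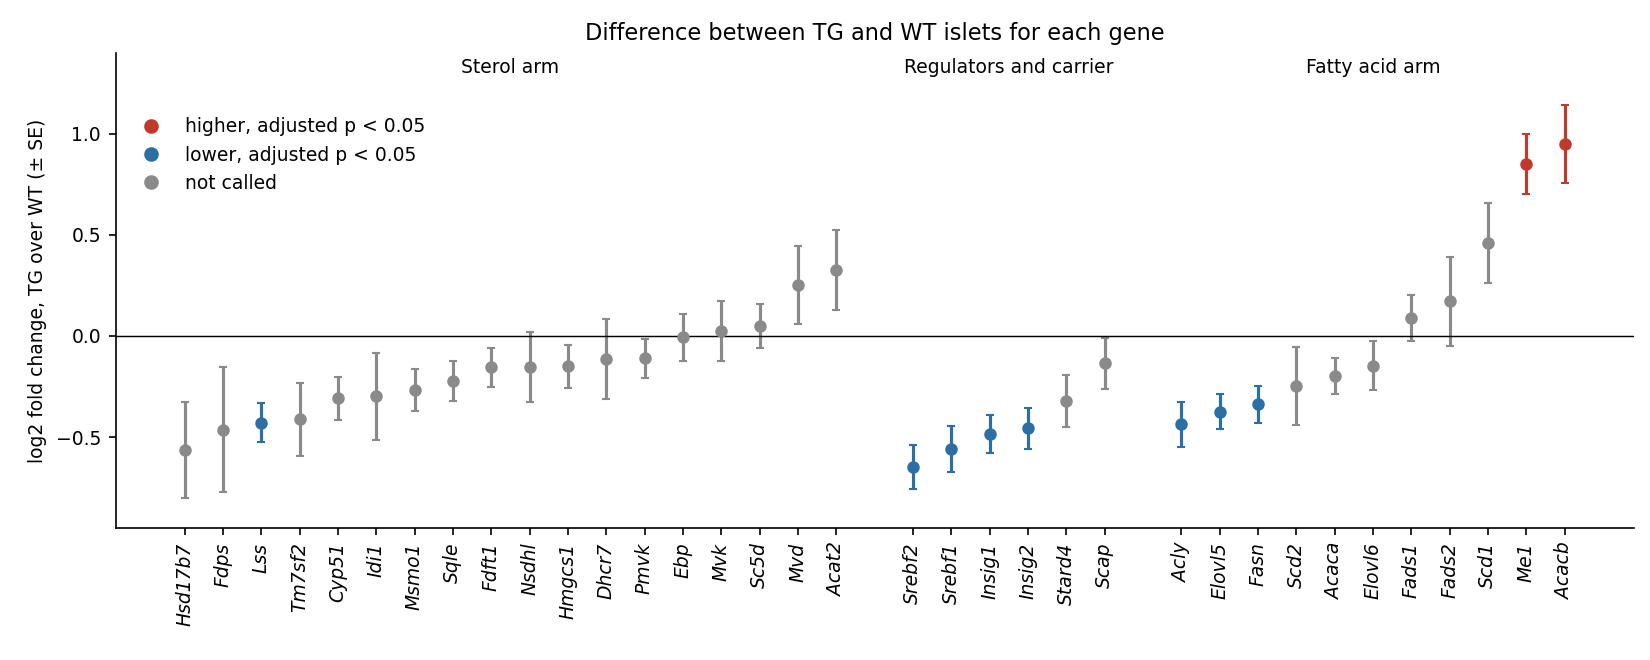
Log2 fold change of TG over WT (vertical axis, points with SE bars) for each of the 35 genes, grouped by arm and ordered by value, with called genes in colour. The sterol arm runs from −0.56 (Hsd17b7) to 0.33 (Acat2) with Lss as its single called gene, all 6 regulators lie below 0, and the fatty acid arm spans −0.44 (Acly) to 0.95 (Acacb).

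Of the 6 regulators, 4 were lower in the TG-labelled islets, namely both SREBP genes and both anchors. Among all tested genes 8.06% were called lower. Srebf2 measured 36.1, 33.6, 34.0 and 39.1 CPM in the TG-labelled libraries, against 54.7, 52.5, 66.7 and 49.7 CPM in the WT-labelled libraries. The highest TG-labelled library lay well below the lowest WT-labelled one. Its mean was 1.57-fold lower (35.7 ± 2.51 against 55.9 ± 7.47 CPM), a log2 fold change of −0.65 (SE 0.11, adjusted p = 0.000616). Srebf1 measured 39.7, 45.7, 40.7 and 36.3 CPM in the TG-labelled libraries, against 57.2, 58.1, 72.2 and 51.6 CPM in the WT-labelled libraries. Again the groups did not overlap, and for both genes WT replicate 3 stood highest. The log2 fold change of Srebf1 was −0.56 (SE 0.11, adjusted p = 0.00268). The ratio of Srebf1 to Srebf2 counts was 0.929 to 1.36 in the TG-labelled and 1.04 to 1.11 in the WT-labelled libraries, and it did not pass the test (difference in mean log2 ratio 0.09, exact permutation test, two-sided, p = 0.543).

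Insig1, the anchor that SREBP itself induces, measured 99.1, 107, 89.4 and 121 CPM in the TG-labelled libraries, against 152, 145, 142 and 143 CPM in the WT-labelled libraries. The WT-labelled libraries were tightly grouped and every TG-labelled library lay below them (104 ± 13.2 against 146 ± 4.63 CPM), a log2 fold change of −0.48 (SE 0.093, adjusted p = 0.00189). Insig2, a second anchor that is less dependent on SREBP, measured 23.4, 24.4, 24.2 and 23.6 CPM in the TG-labelled libraries, against 29.9, 35.7, 33.3 and 32.4 CPM in the WT-labelled libraries. Here the TG-labelled libraries were the tighter group and lay below all WT-labelled ones. The log2 fold change of Insig2 was −0.46 (SE 0.10, adjusted p = 0.00477), and the ratio of Insig1 to Insig2 counts did not differ by the test (difference in mean log2 ratio −0.04, exact permutation test, two-sided, p = 0.743).

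The remaining regulators did not pass. Scap, the escort protein, measured 26.1, 37.4, 33.6 and 32.1 CPM in the TG-labelled libraries, against 32.1, 36.8, 41.2 and 31.9 CPM in the WT-labelled libraries, with overlapping groups (log2 fold change −0.14, SE 0.13, adjusted p = 0.508). Of the exon length of Scap 13.2% is shared with a gene on the opposite strand, which had low counts in every library. Without a stated strand setting reads there cannot be assigned, so these low counts do not show whether Scap lost reads. Stard4, a carrier that moves cholesterol between membranes, measured 29.4, 22.1, 22.9 and 31.0 CPM in the TG-labelled libraries, against 38.0, 31.1, 31.0 and 31.5 CPM in the WT-labelled libraries. Its log2 fold change was −0.32 (SE 0.13, adjusted p = 0.0982), and it passed without TG replicate 4 (−0.44, adjusted p = 0.029). That was 1 of the 8 fits with a single library left out, and Stard4 was not called in the others. With replicate number as a block Stard4 also passed (−0.33, adjusted p = 0.0457).

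**Figure D2:**
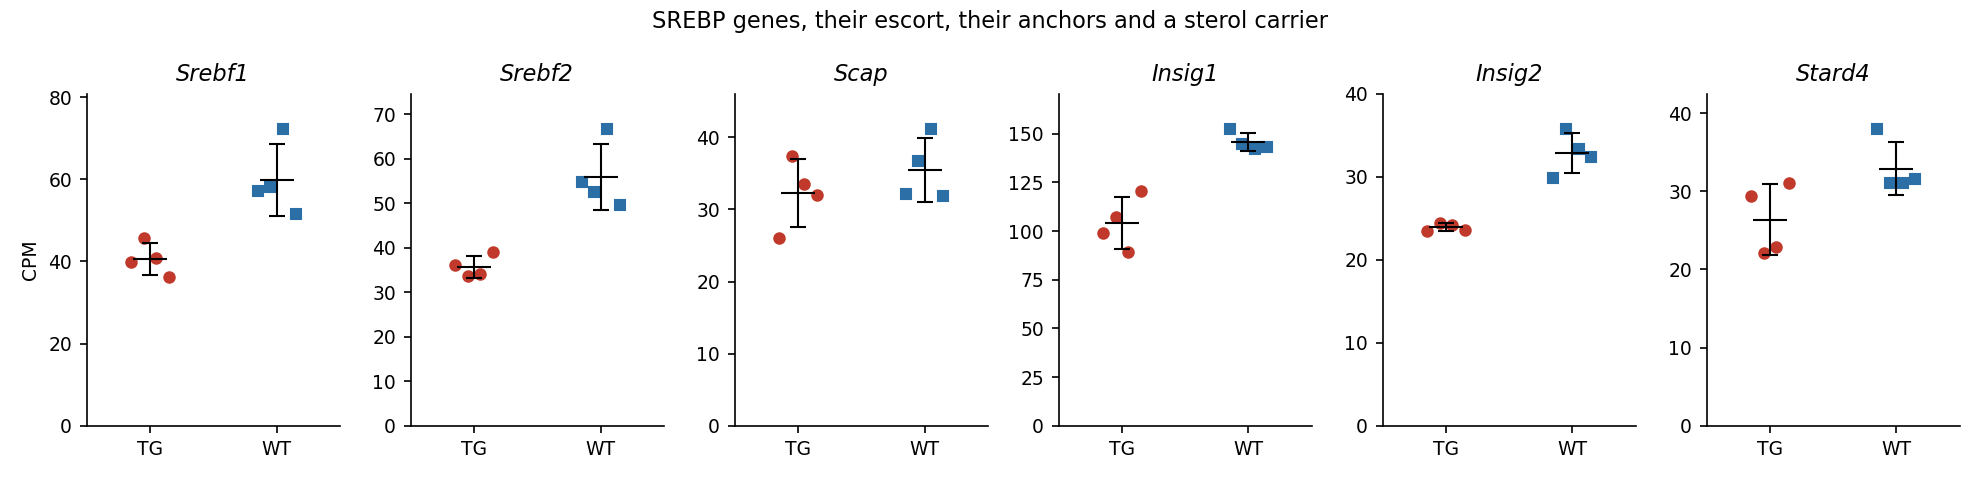
CPM of the 6 regulator and carrier genes in each library (points), with group means and SD bars, on linear axes that start at 0. For Srebf1, Srebf2, Insig1 and Insig2 the 4 TG points lie below the 4 WT points, while for Scap and Stard4 the groups overlap.

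Marker transcripts of several cell types also differed between the groups in this bulk islet RNA, in which fewer cells of a type and less RNA per cell cannot be told apart. The summed level of 9 beta-cell markers was 49096 to 62558 CPM in the TG-labelled and 101062 to 121590 CPM in the WT-labelled libraries, with 9 of 9 called lower. The summed level of 9 endothelial markers was 1253 to 1296 CPM in the TG-labelled and 525 to 897 CPM in the WT-labelled libraries, with 9 of 9 called higher. For 10 fibroblast and mural markers it was 3348 to 6485 CPM in the TG-labelled and 844 to 2798 CPM in the WT-labelled libraries (6 of 10 called higher), and for 6 duct markers 799 to 1089 and 421 to 471 CPM (4 of 6 called higher). The summed level of 10 proliferation genes was 137 to 175 CPM in the TG-labelled and 289 to 444 CPM in the WT-labelled libraries (8 of 10 called lower). Macrophage markers summed to 166 to 443 CPM in the TG-labelled and 94.8 to 152 CPM in the WT-labelled libraries (5 of 7 called higher), and acinar markers to 5256 to 33908 and 1045 to 10192 CPM (0 of 8 called). None of these lists had a marker at or under the limit that a count of 0 allows in every library. Adipocytes, which make much fat of their own, were near 0, since 6 of their markers summed to at most 1.35 CPM in the TG-labelled and 1.57 CPM in the WT-labelled libraries. The part of the cell makeup in the differences of these 35 genes was not tested beyond fits with marker covariates and with libraries left out. With acinar markers (their mean log2 CPM) as a covariate the 35 counted 2 higher and 8 lower. All genes then counted 1926 higher and 1272 lower. Another fit had vascular and stromal markers (their mean log2 CPM) as the covariate. On the vascular and stromal covariate the groups do not overlap, so this fit cannot separate the group difference from these markers. The median standard error over all genes was 1.99 times as large with it. With it Srebf2 (−1.06, adjusted p = 0.00834), Srebf1 (−0.94, adjusted p = 0.0314), Acly (−0.88, adjusted p = 0.0415) and Scd2 (−1.21, adjusted p = 0.00808) were called lower. Without the covariate these values were −0.65, −0.56, −0.44 and −0.25. Insig1 (−0.39, adjusted p = 0.546) and Insig2 (−0.40, adjusted p = 0.571) were not called with it. In that fit the 35 counted 4 lower and 0 higher, and 1.52% of all tested genes were called, 0.609% higher and 0.907% lower.

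The 18 sterol enzymes leaned down with a single call, a share of 5.56%. Among all tested genes 8.06% were called lower and 12.1% higher. The log2 fold changes of the sterol enzymes were negative for 14 (77.8%) and positive for 4, with a median of −0.16. Of all tested genes 50.2% were negative. Lss, lanosterol synthase, which closes the sterol rings, measured 36.5, 42.6, 34.0 and 39.8 CPM in the TG-labelled libraries, against 51.0, 49.6, 55.1 and 50.2 CPM in the WT-labelled libraries. Lss was the only sterol enzyme whose groups did not overlap, where 9.94% of all tested genes had TG below WT without overlap. The mean of Lss was 1.35-fold lower (38.2 ± 3.77 against 51.5 ± 2.50 CPM), with a log2 fold change of −0.43 (SE 0.097, adjusted p = 0.0057). When vascular and stromal markers were a covariate the value was −0.51 and the call was lost (adjusted p = 0.364).

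The steps from acetyl-CoA to farnesyl diphosphate did not differ beyond the spread between libraries. Hmgcs1, which makes HMG-CoA, measured 73.0, 66.6, 68.0 and 68.4 CPM in the TG-labelled libraries, against 91.5, 70.8, 80.3 and 63.4 CPM in the WT-labelled libraries. The WT-labelled libraries spread on both sides of the TG-labelled ones (log2 fold change −0.15, SE 0.11, adjusted p = 0.373). Genes on the opposite strand share 12.1% of the exon length of Hmgcs1 and 9.22% of that of Idi1. The kinases Mvk (0.02, SE 0.15) and Pmvk (−0.11, SE 0.095), the decarboxylase Mvd (0.25, SE 0.19) and the isomerase Idi1 (−0.30, SE 0.21) followed, with adjusted p-values between 0.374 and 0.94. Acat2, a thiolase that joins acetyl-CoA units, had the highest value of the arm at 0.33 (SE 0.20, adjusted p = 0.279). Fdps, farnesyl diphosphate synthase, was the lowest of the 35 at 2.02 ± 0.37 CPM in the TG-labelled and 2.79 ± 0.884 CPM in the WT-labelled libraries (log2 fold change −0.46, SE 0.31, adjusted p = 0.334). Of its exon length 26.7% is shared with another gene on the same strand, so its counts are uncertain.

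Sqle and several enzymes that act on lanosterol or its products had negative values that fell short of the threshold with all libraries. Sqle, squalene epoxidase, measured 82.0, 114, 91.3 and 91.9 CPM in the TG-labelled libraries, against 104, 114, 114 and 109 CPM in the WT-labelled libraries. Only TG replicate 2 reached the WT-labelled level, and without it Sqle passed the test (−0.32, adjusted p = 0.0223, against −0.22, SE 0.098 and adjusted p = 0.134 with all libraries). Cyp51, which takes the first methyl group off lanosterol, measured 74.4, 73.8, 69.2 and 93.6 CPM in the TG-labelled libraries, against 105, 81.8, 99.5 and 99.2 CPM in the WT-labelled libraries. TG replicate 4 overlapped WT replicate 2 here. Its log2 fold change was −0.31 (SE 0.11, adjusted p = 0.0568), and it passed without TG replicate 4 (−0.44, adjusted p = 0.00575), without WT replicate 2 (−0.39, adjusted p = 0.0344) and under 5 other settings. Msmo1, an oxidase of the remaining methyl groups, was at −0.27 (SE 0.10, adjusted p = 0.0814) and passed without TG replicate 4 (−0.35, adjusted p = 0.0414) and without WT replicate 3 (−0.35, adjusted p = 0.0214). With replicate number as a block (−0.26, adjusted p = 0.0422) and with upper-quartile scaling (−0.31, adjusted p = 0.047) Msmo1 passed too. Msmo1 changed sign when vascular and stromal markers were a covariate (0.13, adjusted p = 0.902). Tm7sf2, a sterol reductase, was at −0.41 (SE 0.18, adjusted p = 0.125) and passed without TG replicate 3 (−0.61, adjusted p = 0.0373). Of its exon length 12.1% is shared with Vps51 on the same strand, at 33.4 ± 3.19 CPM in the TG-labelled and 39.3 ± 4.79 CPM in the WT-labelled libraries, so its counts are uncertain. Hsd17b7, a reductase of the same demethylation complex, was at −0.56 (SE 0.24, adjusted p = 0.112) and passed without WT replicate 3 (−0.71, adjusted p = 0.0451). Among the 8 fits with a single library left out, Sqle, Tm7sf2 and Hsd17b7 each passed in 1, and Cyp51 and Msmo1 in 2. Leaving out other libraries could shrink the difference, as for Sqle (−0.15, adjusted p = 0.341) and Tm7sf2 (−0.33, adjusted p = 0.297) without TG replicate 1. Cyp51 without WT replicate 1 was at −0.27 (adjusted p = 0.146).

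The other late enzymes and Fdft1 lay between −0.16 and 0.05 and were not called. Nsdhl, a dehydrogenase of the demethylation complex (−0.15, SE 0.17), Ebp, a sterol isomerase (−0.01, SE 0.12), Sc5d, a sterol desaturase (0.05, SE 0.11), and Dhcr7, a final reductase (−0.11, SE 0.20), had adjusted p-values between 0.602 and 0.976. Fdft1, squalene synthase, was at −0.16 (SE 0.096, adjusted p = 0.293). Its exons share 18.3% of their length with Ctsb on the opposite strand, which was higher in the TG-labelled libraries (0.35, adjusted p = 0.00561), and without a stated strand setting reads there cannot be assigned. Within the WT-labelled group, replicate 1 stood highest for 11 of the 18 sterol enzymes, and within the TG-labelled group no replicate stood highest for more than 6.

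**Figure D3:**
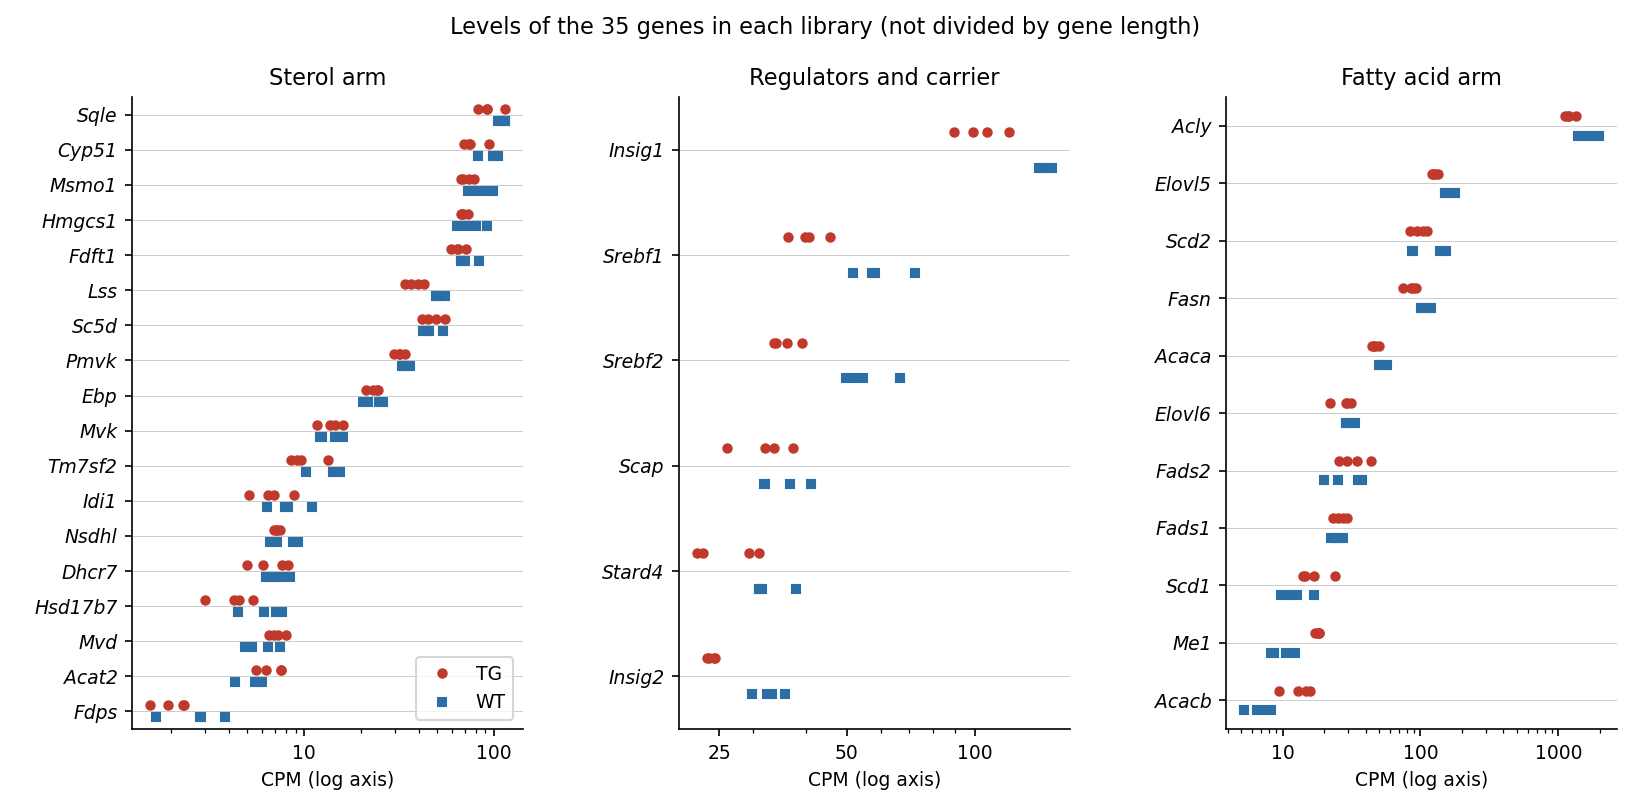
CPM of all 35 genes in each TG library (circles) and WT library (squares) on log axes, in 3 panels by arm and ordered by level. Acly, at 1115 to 1979 CPM, stands far to the right of the others, and TG and WT points separate for Lss alone in the sterol panel.

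The fatty acid arm split in 2 directions. Acly, Fasn and Elovl5, which carry citrate carbon into long chains, were lower in the TG-labelled islets, while Me1 and Acacb were higher. Acly, ATP-citrate lyase, which makes cytosolic acetyl-CoA for both arms, measured 1115, 1334, 1165 and 1199.8 CPM in the TG-labelled libraries, against 1705, 1381, 1979 and 1454 CPM in the WT-labelled libraries. The groups did not overlap, but TG replicate 2 and WT replicate 2 lay close together. Its log2 fold change was −0.44 (SE 0.11, adjusted p = 0.0121). Acly was also the most abundant of the 35 per length, at 228 CPM per kilobase of exon in the TG-labelled and 309 in the WT-labelled libraries, and Fdps was last at 0.479 and 0.664.

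Fasn, fatty acid synthase, measured 74.5, 92.9, 85.6 and 87.6 CPM in the TG-labelled libraries, against 103, 109, 119 and 100.4 CPM in the WT-labelled libraries. All TG-labelled libraries lay below all WT-labelled ones, with TG replicate 1 lowest. Fasn had a log2 fold change of −0.34 (SE 0.092, adjusted p = 0.0168), and without TG replicate 1 the call was lost (−0.27, adjusted p = 0.0501). Elovl5, an elongase of polyunsaturated chains, measured 124, 128, 122 and 135 CPM in the TG-labelled libraries, against 151, 151, 178 and 179 CPM in the WT-labelled libraries. The groups were clearly apart (log2 fold change −0.38, SE 0.086, adjusted p = 0.00616). Acaca, the cytosolic acetyl-CoA carboxylase that makes malonyl-CoA for synthesis, measured 45.8, 44.5, 46.5 and 49.8 CPM in the TG-labelled libraries, against 50.1, 57.2, 55.7 and 50.8 CPM in the WT-labelled libraries. TG replicate 4 lay just below WT replicate 1, and although the groups did not overlap the gene was not called (−0.20, SE 0.09, adjusted p = 0.142).

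Acacb, the mitochondrial acetyl-CoA carboxylase, whose malonyl-CoA restrains fatty acid import into mitochondria, measured 15.7, 14.7, 13.0 and 9.46 CPM in the TG-labelled libraries, against 7.34, 5.25, 8.24 and 6.54 CPM in the WT-labelled libraries. Every TG-labelled library exceeded every WT-labelled one, and TG replicate 4 came closest. The mean was 1.93-fold higher (log2 fold change 0.95, SE 0.19, adjusted p = 0.00283). Me1, cytosolic malic enzyme, a source of NADPH for fatty acid synthesis, measured 18.0, 18.3, 18.2 and 17.2 CPM in the TG-labelled libraries, against 10.5, 8.20, 12.3 and 8.74 CPM in the WT-labelled libraries. The TG-labelled libraries lay close together and above all WT-labelled ones. Its mean was 1.80-fold higher (log2 fold change 0.85, SE 0.15, adjusted p = 0.000955). Neither rise was called once vascular and stromal markers were a covariate (Acacb 0.33, adjusted p = 0.861; Me1 0.28, adjusted p = 0.821), nor were Fasn (−0.45, adjusted p = 0.423) and Elovl5 (−0.48, adjusted p = 0.314). Without TG replicates 2 and 3, the libraries with the most macrophage transcripts, Acacb (0.84, adjusted p = 0.052) and Elovl5 (−0.39, adjusted p = 0.0503) also missed the threshold. With all libraries their log2 fold changes were 0.95 and −0.38. That fit had fewer libraries, and calls over all genes fell from 2475 to 1267 higher and from 1654 to 987 lower. The part of macrophages was not tested.

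The desaturases did not pass the test. Scd1, a stearoyl-CoA desaturase, measured 24.1, 14.1, 17.0 and 14.6 CPM in the TG-labelled libraries, against 16.9, 9.81, 12.7 and 11.3 CPM in the WT-labelled libraries. Its relative Scd2, the more abundant form per exon length in these islets, measured 112, 83.4, 104 and 94.5 CPM in the TG-labelled libraries, against 138, 88.4, 153 and 87.4 CPM in the WT-labelled libraries. Replicate 1 was high in both groups for Scd1, and for Scd2 the WT-labelled libraries fell into a high and a low pair. The log2 fold changes were 0.46 (SE 0.20, adjusted p = 0.123) for Scd1 and −0.25 (SE 0.19, adjusted p = 0.439) for Scd2. Scd1 passed in 1 of the 8 fits with a single library left out, without WT replicate 1 (0.62, adjusted p = 0.0447). With replicate number as a block Scd1 also passed (0.46, adjusted p = 0.0198). Fads1 (0.09, SE 0.11, adjusted p = 0.665) and Fads2 (0.17, SE 0.22, adjusted p = 0.661), which desaturate polyunsaturated chains, and Elovl6, an elongase of saturated chains (−0.15, SE 0.12, adjusted p = 0.447), were not called. Within the WT-labelled group replicate 3 stood highest for 7 of the 11 fatty acid genes.

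**Figure D4:**
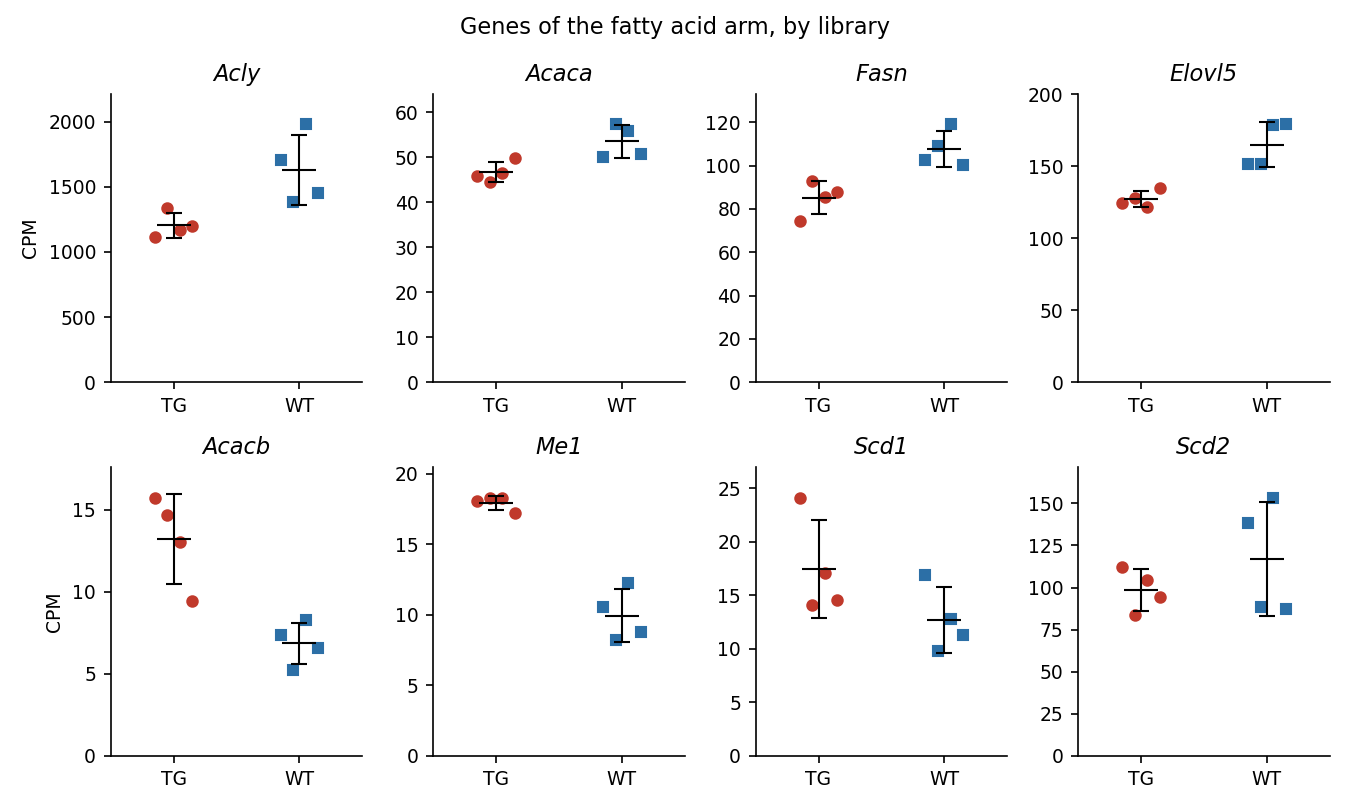
CPM of 8 fatty acid genes in each library (points), with group means and SD bars, on linear axes that start at 0. Acly, Fasn, Elovl5 and Acaca have all TG points below the WT points, Acacb and Me1 have all TG points above them, and Scd1 and Scd2 overlap.

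Ratios within a library, which do not depend on library size, were taken for 6 pairs of related genes after their values had been seen. The ratio of Acacb to Acaca counts was 0.190 to 0.343 in the TG-labelled and 0.0917 to 0.148 in the WT-labelled libraries, a difference of 1.14 in the mean log2 ratio. The ratio of Scd1 to Scd2 was 0.154 to 0.215 in the TG-labelled and 0.0831 to 0.129 in the WT-labelled libraries, a difference of 0.66. Neither ratio overlapped between the groups. Both gave p = 0.0286, the smallest value that the 70 arrangements of an exact two-sided permutation test allow, and p = 0.0857 after adjustment over the 6 pairs. Elovl5 to Elovl6 (−0.21, exact permutation p = 0.257) and Fads1 to Fads2 (−0.11, exact permutation p = 0.629) overlapped, as did the Srebf1 to Srebf2 and Insig1 to Insig2 ratios given above.

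Summed over its members, each arm was lower in the TG-labelled islets, the regulators by most. The 18 sterol enzymes summed to 575, 595, 555 and 610.5 CPM in the TG-labelled libraries, against 723, 637, 668 and 645 CPM in the WT-labelled libraries. The ratio of means was 0.874 and the groups did not overlap. On library sizes without TMM scaling that ratio was 0.932, and the highest TG-labelled sum (626 CPM) came close to the lowest WT-labelled one (629 CPM). The regulators summed to 263 ± 16.9 CPM in the TG-labelled and 362 ± 18.9 CPM in the WT-labelled libraries (ratio 0.725). The fatty acid arm summed to 1697 ± 79.7 CPM in the TG-labelled and 2188 ± 328 CPM in the WT-labelled libraries (ratio 0.776), of which Acly made up most. Without Acly the fatty acid sums were 494 ± 16.8 and 558 ± 57.3 CPM (ratio 0.885), and the groups overlapped. The sum of the sterol arm over that of the fatty acid arm was 0.344 ± 0.0162 in the TG-labelled and 0.309 ± 0.0366 in the WT-labelled libraries, with overlapping groups. Without Acly the same ratio was 1.18 ± 0.0818 in the TG-labelled and 1.20 ± 0.101 in the WT-labelled libraries, so which arm fell further was not resolved.

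**Figure D5:**
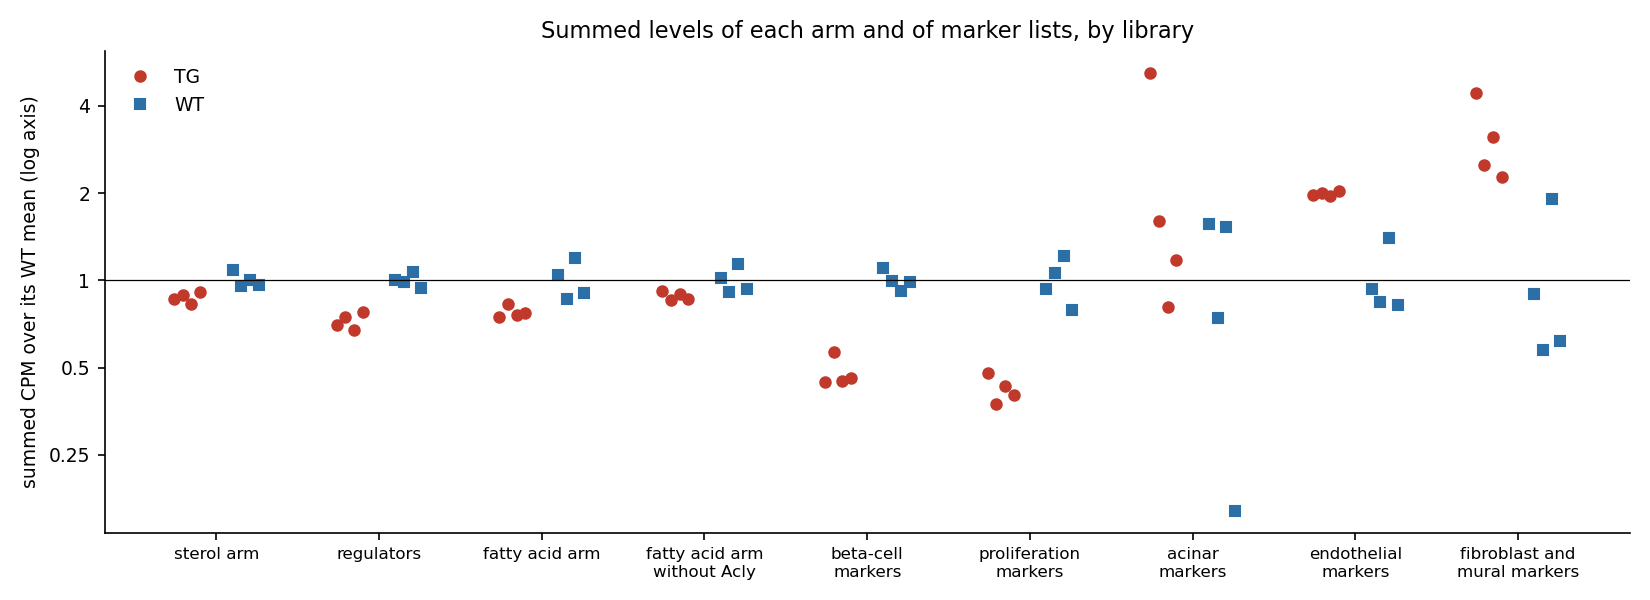
Summed CPM of each arm, of the fatty acid arm without Acly and of 5 marker lists in each library. Values are divided by the mean of the WT libraries (vertical log axis), TG circles left of WT squares. The 3 arm sums lie below every WT value in TG, at ratios of means of 0.874, 0.725 and 0.776. Without Acly the fatty acid sums overlap between the groups (ratio 0.885), as do the acinar markers. Beta-cell and proliferation markers lie further below, and endothelial and fibroblast markers lie above.

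Genes that process or assist the SREBPs were mostly not called. Of 15 such genes 1 was called lower and 0 higher, with a median log2 fold change of 0.02. For all tested genes the shares were 8.06% lower and 12.1% higher. The called gene was Nfyc, a subunit of the CCAAT-binding factor NF-Y, at 21.9 ± 1.19 CPM in the TG-labelled and 34.4 ± 3.71 CPM in the WT-labelled libraries (−0.65, SE 0.11, adjusted p = 0.000676). Mbtps2, a Golgi protease that releases SREBPs (0.32, SE 0.12, adjusted p = 0.0824), and Fbxw7, part of a ubiquitin ligase that marks nuclear SREBPs for breakdown (−0.28, SE 0.11, adjusted p = 0.0834), were next and not called.

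The isoprenoid branch, which leaves the sterol chain at farnesyl diphosphate, had 1 of 11 genes lower and 0 higher, with a median of −0.05. For all tested genes the shares were 8.06% lower and 12.1% higher. The gene called lower was Dhdds, a subunit of the enzyme that builds the dolichol chain, at 42.5 ± 3.55 CPM in the TG-labelled and 60.0 ± 6.94 CPM in the WT-labelled libraries (−0.50, SE 0.10, adjusted p = 0.00325). Its partner subunit Nus1 (−0.12, SE 0.091, adjusted p = 0.423) and Icmt, which methylates prenylated proteins (0.08, SE 0.092, adjusted p = 0.60), did not pass.

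Of 18 sterol transport, storage and efflux genes 5 were higher, 2 lower and 11 not called, with a median of 0.20, where 12.1% of all tested genes were higher and 8.06% lower. Gramd1b, which moves cholesterol from the plasma membrane to the endoplasmic reticulum, reached 39.0 ± 4.05 CPM in the TG-labelled and 21.0 ± 2.27 CPM in the WT-labelled libraries (0.89, SE 0.12, adjusted p = 8.46e-05). Mylip, a ubiquitin ligase of lipoprotein receptors that sterol-sensing LXR receptors induce, reached 41.2 ± 2.7 CPM in the TG-labelled and 24.0 ± 4.34 CPM in the WT-labelled libraries (0.78, SE 0.13, adjusted p = 0.000591). Lipa, the lysosomal lipase of cholesterol esters, reached 17.7 ± 3.13 CPM in the TG-labelled and 9.31 ± 1.53 CPM in the WT-labelled libraries (0.93, SE 0.17, adjusted p = 0.00142). For each of these 3 every TG-labelled library exceeded every WT-labelled one. Also called higher were Nr1h3, the gene of an LXR receptor (0.72, adjusted p = 0.0033), and Cyp27a1 (1.35, adjusted p = 0.00709). Abca1 (0.27, adjusted p = 0.118) and Abcg1 (−0.14, adjusted p = 0.50) were not called, and LXR activity was not tested. The genes called lower, named after their values were seen, were Gramd1a, a relative of Gramd1b (−0.46, SE 0.089, adjusted p = 0.00199), and Osbp, an oxysterol-binding protein (−0.35, SE 0.11, adjusted p = 0.0405). The summed macrophage markers also did not overlap between the groups, and their part in the rise of these genes was not tested.

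Of 30 further genes of fatty acid supply, elongation and activation 29 were tested, with 6 higher and 3 lower and a median of 0.03. For all tested genes the shares were 12.1% higher and 8.06% lower. Mlxipl, the glucose-responsive factor ChREBP that drives lipogenic genes, stood at 53.7 ± 8.47 CPM in the TG-labelled and 137 ± 10.7 CPM in the WT-labelled libraries (−1.35, SE 0.11, adjusted p = 9.23e-07). No TG-labelled library reached the level of any WT-labelled one. Elovl2, an elongase of long polyunsaturated chains, stood at 9.98 ± 2.71 CPM in the TG-labelled and 21.9 ± 4.26 CPM in the WT-labelled libraries (−1.13, SE 0.19, adjusted p = 0.000783). Elovl7, an elongase of saturated chains, reached 12.5 ± 1.86 CPM in the TG-labelled and 6.76 ± 1.44 CPM in the WT-labelled libraries (0.88, SE 0.19, adjusted p = 0.00363). The other genes called were named after their values were seen. Fads3 (1.14), Hacd1 (0.84), Thrsp (0.74), Mid1ip1 (0.50) and Acsl3 (0.42) were higher, and Acss2 (−0.32) was lower.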

How the data were processed

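Whole-number gene counts were deposited per library and not normalized. Per the submitters' processing notes, STAR 2.7.10a and HTSeq 0.11.3 were used with build mm39. The sources used here give no strand setting. Reads in no gene (25.3% to 31.5%) and ambiguous reads (3.74% to 4.36%) entered neither library sizes nor tests. Groups and replicate numbers came from the sample titles, and no pair of libraries within a group agreed within sampling noise (chi-square per gene 14.3 to 45.9). Symbols and merged exon lengths came from GENCODE M21 (GRCm38), so no coordinates of the counted build are given, and 52081 of 55414 identifiers had a symbol.

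Genes were filtered with filterByExpr (minimum count 10), scaled by TMM and tested with the robust quasi-likelihood test of edgeR 4.0.16 in R 4.3.3, group as the only term, Benjamini-Hochberg adjustment over 20509 genes. A count of 0 allows up to 3 counts, 0.133 to 0.182 CPM, and this covers counting error only. Alternatives were DESeq2 1.42.0, other scalings and filters, acinar or vascular and stromal covariates, a replicate block, single libraries left out and, added after seeing the data, TG replicates 2 and 3 left out (most macrophage transcripts) and TG replicate 1 and WT replicate 4 left out (most and least acinar transcripts). The ratios of related genes were compared with exact permutation tests in SciPy 1.17.1. Promoters were searched with the motif letters given.

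The members and lists were chosen with earlier results of these data known. All 35 members are accounted for. Of each pathway list the 3 genes with the lowest adjusted p are named, markers are given as sums, and Atf4 and its listed targets check the libraries.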

Additional observations from a re-analysis of the deposited data

Results flagged for a closer look

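For Stard4, the cholesterol carrier, WT replicate 1 stood at 38.0 CPM, apart from the other 3 WT-labelled libraries at 31.0 to 31.5 CPM. Its gap to the nearest of them was 0.926 of the group's range, above Dixon's 95% critical value for 4 samples. It was the only one of 70 gene-by-group sets to stand out in this way, where chance gives about 5%. Without WT replicate 1 Stard4 was at −0.25 on the log2 scale (adjusted p = 0.256), against −0.32 with it, and was not called in either case.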

How the results depend on the processing

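Srebf1, Srebf2 and Acly were called lower under all 19 alternative settings. Lss, Insig1, Insig2 and Me1 were called under 18 and lost only with the vascular and stromal covariate, and Acacb, Elovl5 and Fasn under 17. Over single genes and settings, 610 values kept direction and call, 20 gained a call, 10 lost it and 25 changed sign. With the vascular and stromal covariate 125 of all genes were higher and 186 lower, against 2475 and 1654. Of the 35 members 0 were then higher and 4 lower, of the sterol arm 0 were lower (median −0.32), of the fatty acid arm 0 were higher and of the regulators 2 were lower. Without TG replicates 2 and 3 all genes counted 1267 higher and 987 lower, the members 1 higher, the sterol arm 2 lower and the fatty acid arm 1 higher. Without TG replicate 1 and WT replicate 4, 1509 of all genes were higher. The count of sterol enzymes called lower was 2 with median-of-ratios scaling, no filter or DESeq2, 3 with upper-quartile scaling, and between 1 and 3 when each library was left out in turn (2 or 3 without TG replicate 2, 3 or 4 or WT replicate 2 or 3). The sterol sum ratio was 0.932 on plain library sizes, the fatty acid sum ratio 0.885 without its highest member, and the sterol over fatty acid ratio, TG over WT, turned from 1.11 to 0.987 without the highest member of each.

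Sign changes concerned genes not called with all libraries, most of them near 0, but Msmo1 stood at −0.27 and Scd1 at 0.46. With the vascular and stromal covariate these were Mvk (−0.15), Msmo1 (0.13), Scd1 (−0.13), Fads1 (−0.21) and Fads2 (−0.85). With the acinar covariate they were Mvk (−0.0616), Sc5d (−0.0052) and Fads2 (−0.0616), with upper-quartile scaling Mvk (−0.0123), and with the filter of 1 CPM in 4 libraries Ebp (0.0083). Without TG replicates 2 and 3 they were Mvk (−0.0081) and Fads1 (−0.0086), and without TG replicate 1 and WT replicate 4 Mvk (−0.0346), Sc5d (−0.0303) and Fads2 (−0.15). With single libraries left out, Mvk ran from −0.0539 to 0.10, Ebp from −0.0705 to 0.0467, Sc5d from −0.0627 to 0.12 and Fads1 from −0.0063 to 0.13. The causes were not tested.

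Over all tested genes, same-numbered TG and WT libraries deviated from their group means with correlations between −0.030 and 0.081. This gave no sign of pairing by replicate number, and it cannot show that the libraries were unpaired. With the replicate block 2769 of all genes were higher and 1904 lower, and of the members 3 were higher and 11 lower, 3 of them sterol enzymes. Fdps, at 2.02 CPM in the TG-labelled and 2.79 CPM in the WT-labelled libraries, had the widest error of the 35 (SE 0.31). Width did not follow level throughout, since Fads2 had an SE of 0.22 at 33.4 and 29.6 CPM.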
